A study of Mus musculus with 12 samples.

Results

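The set described here holds 43 mouse genes of serine, folate one-carbon and nucleotide synthesis, with the methionine cycle and polyamine synthesis attached to them. They were chosen by name, by a rule that uses no measured value although earlier results of these data were known, out of 57180 rows of the deposited table. Of the 43, 40 stood under their own symbol and 3 under an older one that RefSeq lists as a synonym: Adss2 as Adss, Hprt1 as Hprt and Ctps1 as Ctps. RNA was sequenced from 2 mouse tumour cell lines in culture, KPC, a pancreatic ductal adenocarcinoma line, and MB49, a bladder cancer line, both labelled as wild type. Each line had 3 libraries from cells given 8 Gy of radiation and collected after 48 h, and 3 libraries from control cells. How long the controls were cultured is not stated, and dose and time in culture cannot be told apart. The description of the series also names senescent cells of both lines, while each library's label says only control or 8 Gy. Whether a group's 3 libraries were separate cultures is not stated, so the p-values cover only their spread, which may be technical.

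Cells build serine from a glycolytic intermediate in 3 enzymatic steps and pass its side-chain carbon to the folate cofactor. The folate cycle runs in a mitochondrial and a cytosolic branch with separate, related enzymes, and its carbon units go into purine rings, thymidylate and, by way of methionine, methyl groups. Purine and pyrimidine rings are assembled on the activated sugar PRPP, or recovered by salvage enzymes, and ribonucleotide reductase then makes the deoxynucleotides (dNTPs) that DNA replication and repair use. Growing tumour cells commonly draw on all of these routes. Ionising radiation breaks DNA and can halt division.

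Promoters from 250 bases before to 50 bases after the annotated start were taken from RefSeq (build GRCm38.p6, not the build GRCm39 of the counts) and were found for 38 of the 43 genes. They were searched on both strands for CACGTG, the E-box that Myc and other basic helix-loop-helix factors bind, for TGATGNAA, a composite element of C/EBP and ATF factors, and for TTTGGCGC or TTTCCCGC, forms of the E2F site. CACGTG stood in 5 of the 38 genes (13.2%), against 8.1% of all genes with a RefSeq promoter of this length (7.2% of all promoters). TGATGNAA stood in 1 gene, Prps1 (2.6%), against 4.5% of all genes (4.0% of promoters), and the E2F forms in 2 genes, Ppat and Prps2 (5.3%), against 1.8% of all genes (1.6% of promoters). None of these motifs contains another. A match describes the letters in this window and no more.

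Shown first are the promoters of Ppat and Paics, because these genes of the same pathway start 276 bases apart on chromosome 5, on opposite strands, with transcripts that overlap at their 5′ ends, and their mRNAs moved in opposite directions in both lines. The capitals mark E2F forms in Ppat (chr5:76951529-76951828, minus strand, read on the opposite strand as GCGGGAAA) and the E-box in Paics (chr5:76951052-76951351, plus strand).
Ppat: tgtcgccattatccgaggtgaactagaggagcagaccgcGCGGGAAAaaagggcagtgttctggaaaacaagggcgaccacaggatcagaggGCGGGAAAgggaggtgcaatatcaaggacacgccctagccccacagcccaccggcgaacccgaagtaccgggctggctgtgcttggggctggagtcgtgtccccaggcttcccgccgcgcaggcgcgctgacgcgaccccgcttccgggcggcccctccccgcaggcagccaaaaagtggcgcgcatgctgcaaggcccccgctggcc
Paics: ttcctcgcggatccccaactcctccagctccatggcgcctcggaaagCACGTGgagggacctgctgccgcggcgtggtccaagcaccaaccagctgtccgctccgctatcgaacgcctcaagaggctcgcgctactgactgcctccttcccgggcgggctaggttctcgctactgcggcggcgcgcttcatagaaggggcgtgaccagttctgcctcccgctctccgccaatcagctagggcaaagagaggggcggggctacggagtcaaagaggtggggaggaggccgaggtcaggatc

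The 5 genes with CACGTG were Paics, Impdh2, Tyms, Atic and Sms. The following 3 of them differed in their response to 8 Gy, with the E-box in capitals: Impdh2 (chr9:108560186-108560485, plus strand) and Tyms (chr5:30073576-30073875, minus strand), whose mRNA rose in both lines, and Atic (chr1:71556906-71557205, plus strand), whose mRNA fell in both.
Impdh2: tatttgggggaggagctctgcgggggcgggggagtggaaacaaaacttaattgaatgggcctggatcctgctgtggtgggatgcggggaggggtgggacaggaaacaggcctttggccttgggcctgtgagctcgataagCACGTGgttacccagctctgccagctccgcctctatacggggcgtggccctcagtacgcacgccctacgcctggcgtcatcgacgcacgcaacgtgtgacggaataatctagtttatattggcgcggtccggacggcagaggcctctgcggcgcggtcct
Tyms: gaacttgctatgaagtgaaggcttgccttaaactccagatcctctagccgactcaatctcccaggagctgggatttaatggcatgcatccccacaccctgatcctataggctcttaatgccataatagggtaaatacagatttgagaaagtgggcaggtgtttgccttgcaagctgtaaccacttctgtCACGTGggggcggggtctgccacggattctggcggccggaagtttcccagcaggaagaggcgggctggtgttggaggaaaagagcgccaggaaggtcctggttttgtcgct
Atic: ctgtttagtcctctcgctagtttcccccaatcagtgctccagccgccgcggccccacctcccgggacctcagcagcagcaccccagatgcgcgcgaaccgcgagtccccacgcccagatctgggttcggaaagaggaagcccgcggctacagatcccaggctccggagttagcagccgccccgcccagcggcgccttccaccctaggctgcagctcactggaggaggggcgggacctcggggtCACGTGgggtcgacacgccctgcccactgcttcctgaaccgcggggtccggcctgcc

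Libraries held 19006015 to 26337950 estimated counts, and the 43 genes took 0.499 to 0.846% of them. All 43 passed the filter on low counts, with 14362 genes tested in all. CPM, the usual depth-scaled read count, was computed with TMM, a scaling factor fitted to each library. Of 8 epithelial markers, the keratins Krt8 and Krt18 were high in every group, at 1078 CPM or more in irradiated and at 321.7 CPM or more in control libraries. The list was not uniform. Over the 7 tested, the log2 fold change (8 Gy over control) ran from -4.41 to 5.40 in MB49 and from -0.30 to 2.37 in KPC. Between controls, KPC over MB49, it ran from -3.55 to 7.24. The 8 epithelial markers summed to 2700 to 3532 CPM in irradiated and 2263 to 2739 CPM in control MB49 libraries, and to 3405 to 3813 CPM in irradiated and 806 to 935 CPM in control KPC libraries. The 6 pancreatic duct markers summed to 134.7 to 188.8 CPM in irradiated and 146.5 to 171.4 CPM in control MB49 libraries, with Foxa2 and Onecut1 at 0, and to 237.2 to 277.2 CPM in irradiated and 249 to 302.4 CPM in control KPC libraries, with Onecut1 at 0. The 6 urothelial markers summed to 4.58 to 5.35 CPM in irradiated and 12.71 to 16.53 CPM in control MB49 libraries. In KPC they summed to 14.39 to 15.26 CPM in irradiated and 14.64 to 19.14 CPM in control libraries. Of these markers, the uroplakins Upk1a, Upk1b, Upk2 and Upk3a stayed at or below 0.408 CPM in both lines, MB49 included. Most of each sum came from Krt5 and Gata3. In MB49, 1 of these genes fell (log2 fold change, 8 Gy over control, -1.88) and 1 rose (2.59). The 10 fibroblast and endothelial markers summed to 161.1 to 216.5 CPM in irradiated and 55.73 to 107.2 CPM in control MB49 libraries, and to 83.32 to 102.4 CPM in irradiated and 169.4 to 212.9 CPM in control KPC libraries. The 18 immune markers summed to 61.68 to 72.64 CPM in irradiated and 58.83 to 63.17 CPM in control MB49 libraries, and to 98.49 to 106.4 CPM in irradiated and 37.34 to 38.52 CPM in control KPC libraries, where 11 of the 18 were at 0 in each group and Cd14 alone took 92.81 CPM or more in irradiated and 35.22 CPM or more in control libraries. The leukocyte gene Ptprc had 1 count in the 12 libraries. MB49 control replicate 3 held 3.73 CPM of the epithelial gene Epcam, against 0 in the other MB49 libraries. KPC control replicate 1 had 5.11% of its counts on the ribosomal RNA row Rn18s-rs5, against 0.141 to 0.547% in the others. The part of these differences in the results below was not tested, and the counts below are also given without each of these libraries.

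In MB49, 11 of the 43 genes were higher and 22 lower after 8 Gy, with 10 not called, at an adjusted p under 0.05 in edgeR's quasi-likelihood test. Over all genes tested, 66.9% were called, 35.3% higher and 31.6% lower. Of the members, 76.7% were called, 25.6% higher and 51.2% lower. The median log2 fold change (8 Gy over control) was -0.30 over the 43 and 0.04 over all genes. Without MB49 control replicate 3, 14 genes were higher and 19 lower, and without KPC control replicate 1 the counts stayed at 11 and 22. In 32 of the 43, the irradiated and control libraries did not overlap, against 67.4% of all genes. With all genes split into eighths by length, the median log2 fold change was 0.64 in the shortest and -0.28 in the longest.

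In KPC, 12 of the 43 were higher and 18 lower after 8 Gy, with 13 not called, against a background of 63.3% called, 31.3% higher and 32% lower. Of the members, 69.8% were called, 27.9% higher and 41.9% lower. The median log2 fold change was -0.20 over the 43 and -0.01 over all genes. Without KPC control replicate 1, 12 were higher and 16 lower, and without MB49 control replicate 3, 12 and 19. The libraries did not overlap in 35 of the 43, against 69.7% of all genes. The median over all genes was -0.06 in the eighth with the shortest genes and -0.09 in the eighth with the longest. With library totals in place of TMM, the median of all genes shifted by -0.276 in MB49 and -0.385 in KPC, and the members stood at 8 higher and 25 lower in MB49 and at 8 and 27 in KPC. The share of higher genes among all called was then 39.5% in MB49 (52.7% with TMM) and 31.8% in KPC (49.4% with TMM). The members' summed level was 5929 to 6780 CPM in irradiated and 7067 to 7593 CPM in control MB49 libraries, and 5820 to 6147 CPM in irradiated and 5478 to 5871 CPM in control KPC libraries.

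Set side by side, 14 genes fell in both lines (19.9% of all genes did so) and 8 rose in both (20.2%). Of these, 13 of the 14 and 4 of the 8 were called in the same direction under every alternative run. The 13 were Shmt1, Aldh1l2, Mat2a, Prps1, Ppat, Gart, Pfas, Atic, Dhodh, Umps, Ctps1, Rrm2b and Srm. The 4 were Aldh1l1, Impdh2, Ctps2 and Samhd1. The alternatives include library totals, which shifted the median of all genes down in both lines. There a rise could lose its call more easily than a fall. The other rises, Tyms in MB49 and Prps2, Paics and Rrm2 in KPC, each lost a call with library totals. How many of all genes kept their call was not counted. Another 3 genes, Psat1, Psph and Mthfd1l, fell in MB49 and rose in KPC (2.81% of all genes), and 1, Sms, rose in MB49 and fell in KPC (3.4%). Phgdh, Mthfd2l, Adss2, Hprt1, Cad and Dck were called in neither line, and each of the 6 passed in at least 1 line under at least 1 alternative. Of the members not called, all 10 in MB49 and 11 of 13 in KPC passed under at least 1 alternative. With library totals 3 passed in MB49 (Phgdh, Dut and Odc1) and 9 in KPC, all of them lower, beside the shift of all genes given above. With a length offset 6 passed as higher and 1, Dut, as lower in MB49, and 2 as higher in KPC.

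**Figure D1:**
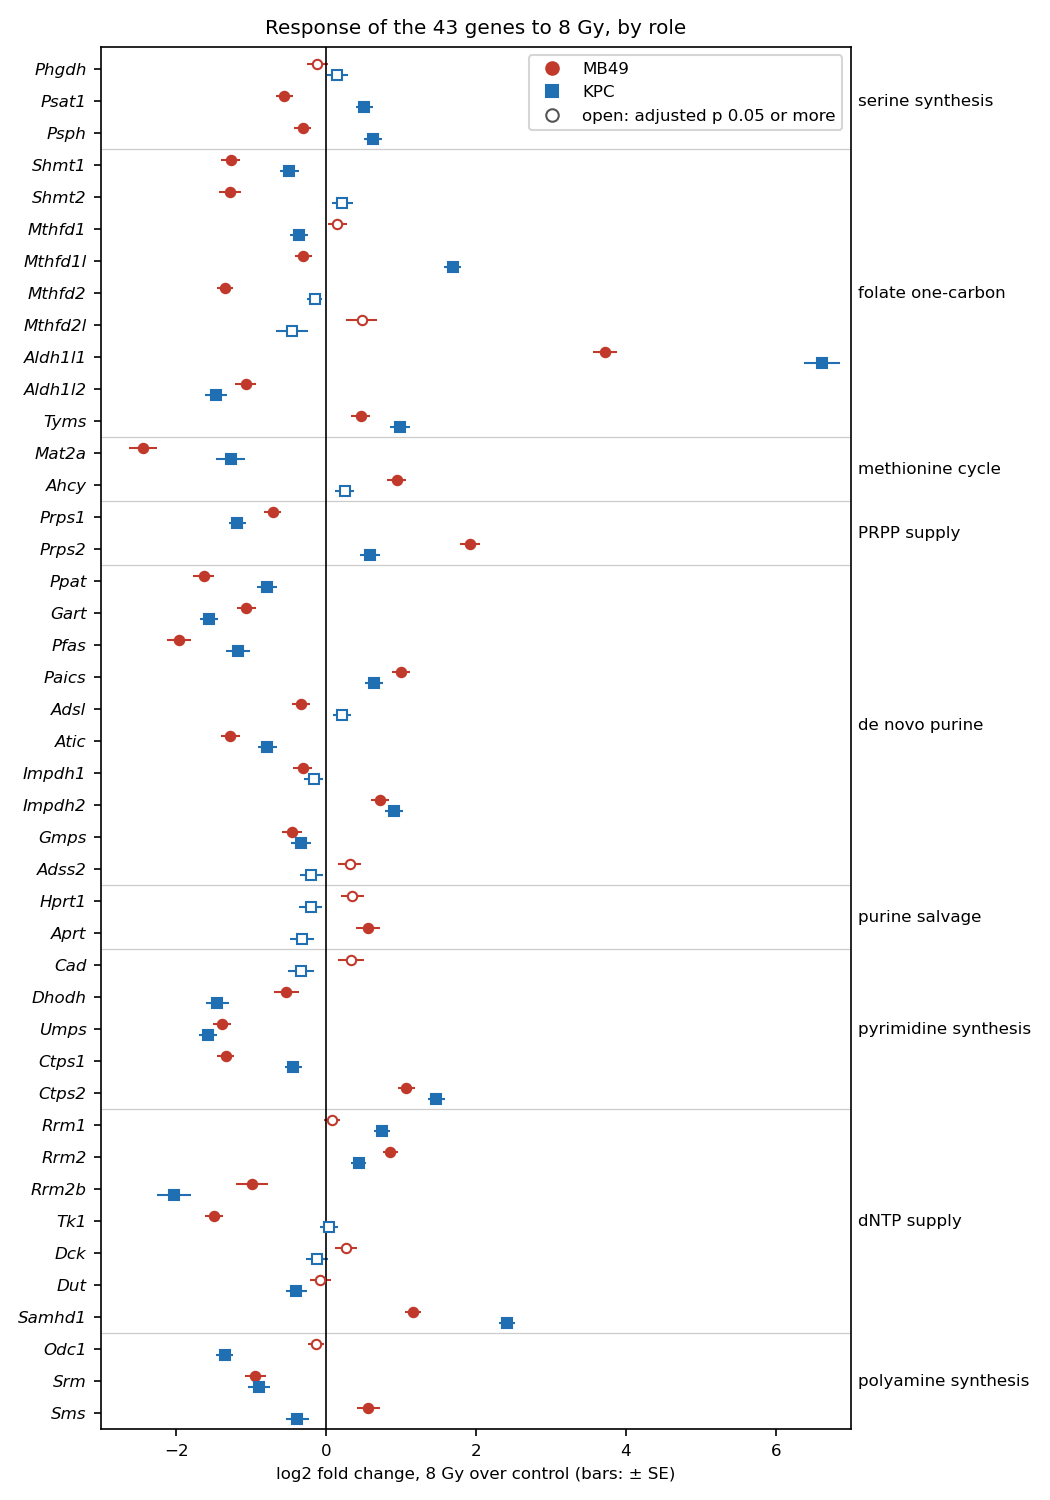
Log2 fold change of the 43 genes after 8 Gy (x axis, 8 Gy over control, bars ± SE) by role, with MB49 as circles and KPC as squares; open symbols did not pass the test. Aldh1l1 stands farthest to the right in both lines (3.72 in MB49, 6.61 in KPC), and most purine and pyrimidine synthesis genes lie left of 0.

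Of the serine synthesis genes, the entry enzyme Phgdh was not called in either line, while the other two both fell in MB49 and both rose in KPC. Phgdh was at 722.7, 757.3 and 561.5 CPM in irradiated and 779.7, 643.1 and 792.3 CPM in control MB49 cells, and at 1074, 1023 and 1187 CPM in irradiated and 1041, 1035 and 880.1 CPM in control KPC cells. The groups overlapped in both lines (log2 fold change -0.12, adjusted p = 0.465 in MB49, and 0.15, adjusted p = 0.356 in KPC), and with library totals the MB49 value was -0.42 (adjusted p = 0.0043).

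Psat1, the transaminase of the second step, was at 403, 411 and 364 CPM in irradiated and 595, 595 and 541 CPM in control MB49 cells. In KPC it was at 570, 580 and 553 CPM in irradiated and 437, 380 and 380 CPM in control cells. No irradiated library overlapped a control in either line, with a fold change of -0.56 (SE 0.11, adjusted p = 0.000311) in MB49 and 0.51 (SE 0.11, adjusted p = 0.000749) in KPC. With library totals alone the KPC value was 0.13 and was not called.

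Psph, the phosphatase that releases serine, was at 66.7, 64.0 and 70.9 CPM in irradiated and 45.6, 44.1 and 40.8 CPM in control KPC cells, without overlap (log2 fold change 0.63, SE 0.12, adjusted p = 0.000209). In MB49 it was at 111, 121 and 102 CPM in irradiated and 138, 120 and 158 CPM in control cells, which overlapped (-0.31, SE 0.12, adjusted p = 0.0269). This call was lost without either of MB49 control replicates 1 and 3 and without either of MB49 irradiated replicates 1 and 3 (adjusted p 0.0516 to 0.127), and with the replicate number as a block (adjusted p = 0.0519). Psph shares 452 exon bases with Cct6a on the opposite strand, which held 92027 counts over the 12 libraries beside 24693 for Psph. It is not given whether counting used strand.

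In the folate cycle, the mitochondrial entry genes fell in MB49 and did not pass the test in KPC. Shmt2, which takes the carbon unit from serine in mitochondria, was at 198, 198 and 141 CPM in irradiated and 476, 387 and 442 CPM in control MB49 cells (log2 fold change -1.28, SE 0.14, adjusted p = 4.46e-07). Mthfd2, the mitochondrial dehydrogenase and cyclohydrolase that is high in many tumours, was at 105, 109 and 95.5 CPM in irradiated and 270, 260 and 260 CPM in control MB49 cells (-1.35, SE 0.10, adjusted p = 5.06e-09). In both, every irradiated MB49 library lay below every control. In KPC, Shmt2 was at 0.21 (adjusted p = 0.193) and Mthfd2 at -0.15 (adjusted p = 0.21) on the log2 fold change scale. With library totals, Mthfd2 was called lower in KPC too (-0.54, adjusted p = 0.000136). Mthfd2l, a related mitochondrial enzyme, stayed at or below 11.0 CPM and was called in neither line, at 0.47 in MB49 and -0.45 in KPC. It passed in 6 alternatives in MB49, among them a length offset (0.50, adjusted p = 0.0288), and in 4 in KPC, among them library totals (-0.83, adjusted p = 0.00473) and, in both lines, the replicate block (adjusted p = 0.0353 in MB49 and 0.0429 in KPC).

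Mthfd1l, which releases formate from mitochondria, was at 79.5, 75.0 and 73.2 CPM in irradiated and 21.9, 24.2 and 24.5 CPM in control KPC cells. It was at 110, 101 and 85.1 CPM in irradiated and 122, 117 and 126 CPM in control MB49 cells. The groups did not overlap in either line. The rise in KPC was large (log2 fold change 1.69, SE 0.12, adjusted p = 1.49e-09), and the fall in MB49 was small (-0.30, SE 0.11, adjusted p = 0.0243). Without MB49 irradiated replicate 3 the MB49 value was -0.21 (adjusted p = 0.0927), and without MB49 control replicate 1 or 3 it also missed the threshold (adjusted p = 0.0509 and 0.0546). It missed it with a gene length offset as well (adjusted p = 0.181).

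Aldh1l1, the cytosolic enzyme that oxidises the folate-bound carbon to carbon dioxide, changed most of the 43 genes in both lines. It was at 162, 164 and 112 CPM in irradiated and 11.1, 10.04 and 12.01 CPM in control MB49 cells (log2 fold change 3.72, SE 0.16, adjusted p = 2.88e-12). In KPC, Aldh1l1 was at 23.8, 21.2 and 26.8 CPM in irradiated and 0.249, 0.224 and 0.245 CPM in control cells (6.61, SE 0.24, adjusted p = 3.29e-13). The KPC controls held 6 counts in each library, so the size of the fold change there rests on few reads. All irradiated libraries lay above all controls of their line.

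Aldh1l2, its mitochondrial counterpart, moved the other way. It was at 105, 95.5 and 112 CPM in irradiated and 220, 244 and 194 CPM in control MB49 cells, and at 16.8, 14.0 and 14.2 CPM in irradiated and 33.5, 43.4 and 47.3 CPM in control KPC cells. The log2 fold change was -1.07 (SE 0.14, adjusted p = 2.55e-06) in MB49 and -1.46 (SE 0.15, adjusted p = 1.32e-07) in KPC, with no overlap in either. Aldh1l2 shares 1056 exon bases with D10Wsu102e on the opposite strand, which held 27703 counts over the 12 libraries beside 27445 for Aldh1l2.

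Shmt1, the cytosolic counterpart of Shmt2, fell in MB49 (log2 fold change -1.27, 7.79 to 8.68 CPM in irradiated and 18.0 to 21.8 CPM in control cells) and in KPC (-0.49, 12.8 to 14.2 CPM in irradiated and 17.6 to 20.5 CPM in control cells). It shares 184 exon bases with Smcr8 on the opposite strand, which held 15110 counts over the 12 libraries beside 4328 for Shmt1. Mthfd1, the cytosolic enzyme that interconverts folate forms, fell in KPC (-0.37, adjusted p = 0.0144) and was at 0.15 in MB49 (adjusted p = 0.284). Its KPC call was lost without KPC control replicate 3 or KPC irradiated replicate 2. Tyms, which makes thymidylate, was at 22.8 to 28.2 CPM in irradiated and 17.1 to 20.4 CPM in control MB49 cells (0.46, adjusted p = 0.00549), and at 32.5 to 36.8 CPM in irradiated and 15.7 to 20.2 CPM in control KPC cells (0.98, adjusted p = 5.02e-06). The MB49 call was lost with library totals (0.17) and with no filter (0.34).

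In the methionine cycle, Mat2a, which makes the methyl donor S-adenosylmethionine, had the largest fall of the 43 genes in MB49. It was at 13.1, 11.6 and 16.0 CPM in irradiated and 73.9, 79.4 and 68.3 CPM in control MB49 cells (log2 fold change -2.45, SE 0.19, adjusted p = 4.39e-09). In KPC, Mat2a was at 5.26, 6.80 and 3.20 CPM in irradiated and 12.9, 12.7 and 11.8 CPM in control cells (-1.28, SE 0.20, adjusted p = 2.36e-05). Irradiated libraries lay below all controls in both lines. Mat2a shares 508 exon bases with Particl on the opposite strand, which held 629 counts over the 12 libraries beside 7847 for Mat2a. Ahcy, which clears the product of methylation, rose in MB49 (0.94, 293 to 398 CPM in irradiated and 174 to 206 CPM in control cells) and was at 0.25 in KPC (adjusted p = 0.102). Its KPC groups did not overlap (519 to 568 CPM in irradiated and 427 to 467 CPM in control cells). There it passed in some alternatives, among them a length offset (0.31, adjusted p = 0.0322) and DESeq2's Wald test (0.30, adjusted p = 0.0326). With library totals it was at -0.14 and not called.

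**Figure D2:**
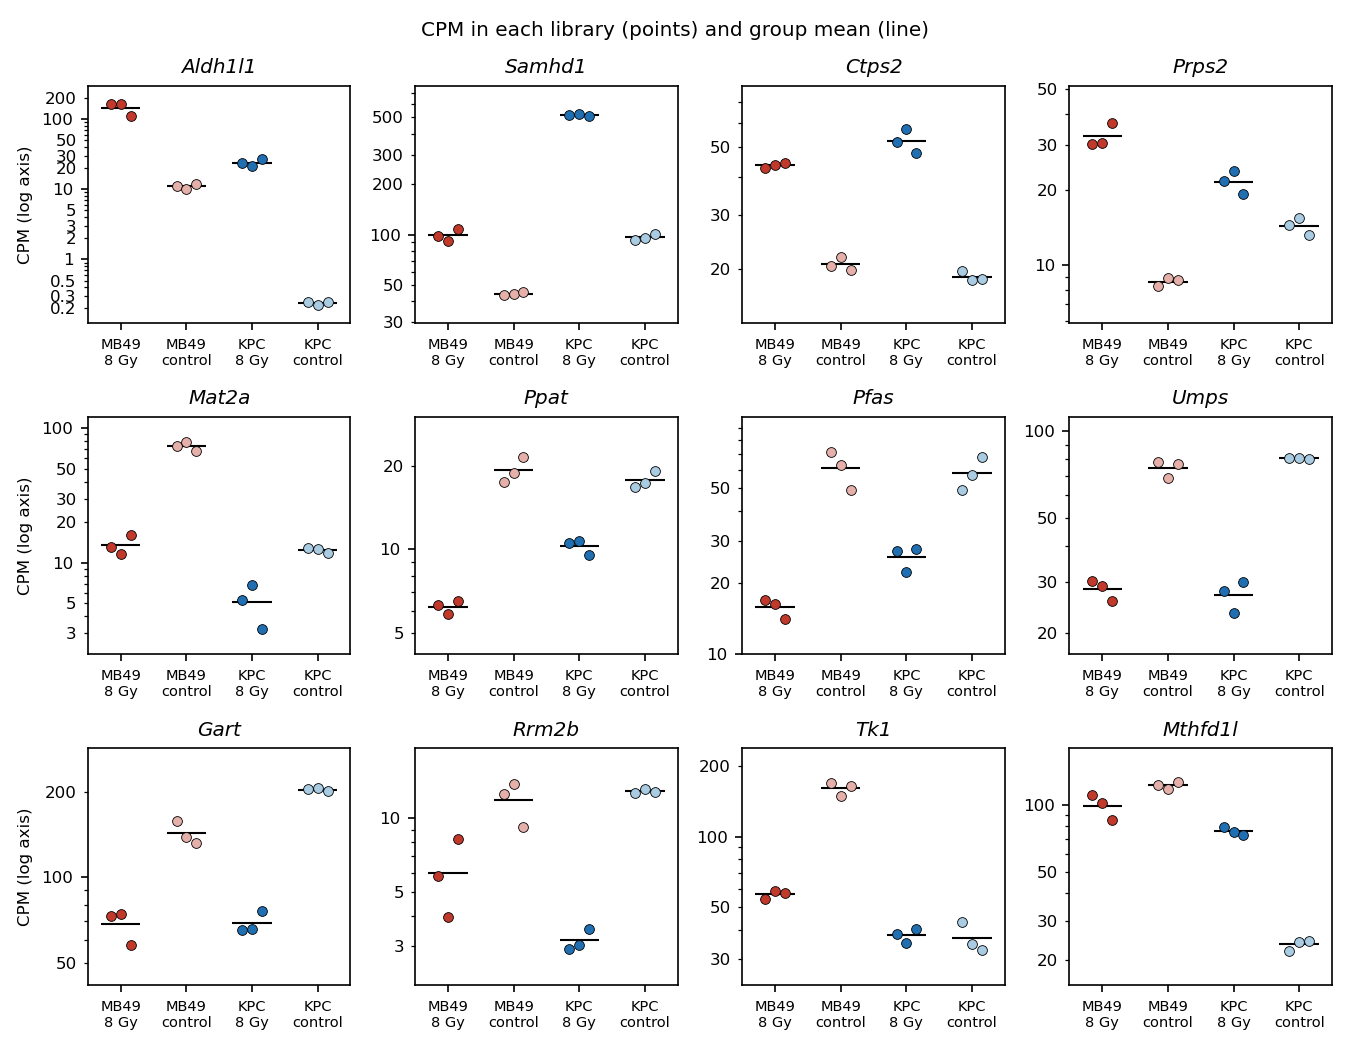
CPM in each library (y axis, log scale) for 12 of the genes, with the irradiated group left of its control in each line and the group mean as a line. Aldh1l1, Samhd1, Ctps2 and Prps2 lie above their controls in both lines and Mat2a, Ppat, Pfas, Umps, Gart and Rrm2b below, while Tk1 is apart only in MB49 and Mthfd1l goes opposite ways.

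The PRPP synthetases changed in opposite directions. Prps2 was at 30.4, 30.5 and 36.8 CPM in irradiated and 8.28, 8.90 and 8.72 CPM in control MB49 cells, and at 21.7, 23.7 and 19.1 CPM in irradiated and 14.5, 15.4 and 13.2 CPM in control KPC cells. It rose in both lines without overlap, by 1.92 (SE 0.13, adjusted p = 1.33e-09) in MB49 and 0.58 (SE 0.13, adjusted p = 0.000782) in KPC on the log2 scale, and the KPC call was lost with library totals (0.20). Prps1 fell in both, with -0.71 (32.2 to 34.1 CPM in irradiated and 49.2 to 57.7 CPM in control cells) in MB49 and -1.18 (38.9 to 43.4 CPM in irradiated and 86.9 to 104 CPM in control cells) in KPC. The row Prps1l3, a near copy of Prps1, held 3272 counts over the 12 libraries beside 15753 for Prps1.

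Of the 10 genes of de novo purine synthesis, 7 fell and 2 rose in MB49, against 31.6% and 35.3% of all genes, and 5 fell and 2 rose in KPC, against 32% and 31.3%. Ppat, which catalyses the committed step, was at 6.33, 5.83 and 6.53 CPM in irradiated and 17.5, 18.9 and 21.6 CPM in control MB49 cells (log2 fold change -1.63, SE 0.14, adjusted p = 1.67e-08). In KPC it was at 10.5, 10.7 and 9.55 CPM in irradiated and 16.8, 17.3 and 19.1 CPM in control cells (-0.79, SE 0.13, adjusted p = 6.2e-05). Pfas, of the fourth step, was at 16.9, 16.2 and 14.1 CPM in irradiated and 70.9, 62.9 and 49.3 CPM in control MB49 cells (-1.96, SE 0.16, adjusted p = 1.06e-08). It also fell in KPC (-1.17, 22.2 to 27.8 CPM in irradiated and 49.1 to 68.0 CPM in control cells). Both genes had non-overlapping groups in both lines.

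Gart, a trifunctional enzyme of early ring assembly, was at 65.3, 65.7 and 76.3 CPM in irradiated and 204, 206 and 201 CPM in control KPC cells (log2 fold change -1.56, SE 0.12, adjusted p = 8.79e-09). In MB49 it fell by 1.06 (57.9 to 74.2 CPM in irradiated and 132 to 158 CPM in control cells). Atic, which closes the ring to give IMP, fell in MB49 (-1.28, 48.4 to 65.5 CPM in irradiated and 128 to 152 CPM in control cells) and in KPC (-0.79, 120 to 134 CPM in irradiated and 206 to 229 CPM in control cells).

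Paics, the bifunctional enzyme between Gart and Atic in the route, rose instead. It was at 180, 176 and 212 CPM in irradiated and 86.0, 102 and 96.0 CPM in control MB49 cells, and at 170, 178 and 144 CPM in irradiated and 102, 110 and 104 CPM in control KPC cells. The log2 fold change was 1.00 (SE 0.12, adjusted p = 1.24e-06) in MB49 and 0.64 (SE 0.12, adjusted p = 0.000156) in KPC, where the call was lost with library totals (0.26). Its neighbour Ppat, whose promoter is printed above with that of Paics, fell in the same libraries. Their transcripts share 272 exon bases on opposite strands, and Paics held 36660 counts over the 12 libraries beside 3827 for Ppat.

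At the branch from IMP to guanine nucleotides, Impdh2 rose in MB49 (log2 fold change 0.72, 278 to 345 CPM in irradiated and 184 to 203 CPM in control cells) and in KPC (0.91, 347 to 385 CPM in irradiated and 173 to 212 CPM in control cells). Its counterpart Impdh1 was at -0.31 in MB49 (adjusted p = 0.0392) with overlapping groups, a call lost in 8 alternatives, and at -0.17 in KPC (adjusted p = 0.267). Gmps, the last enzyme to GMP, fell by 0.46 in MB49 and by 0.33 in KPC. The KPC call (adjusted p = 0.0407) was lost in 9 alternatives, among them DESeq2 size factors (adjusted p = 0.081), the replicate block (adjusted p = 0.0513) and 4 that leave out a KPC library, and the MB49 value was -0.15 with a length offset and not called. Adsl, which acts both on the way to IMP and on the branch to AMP, fell by 0.33 in MB49 and was at 0.21 in KPC (adjusted p = 0.147). Its MB49 call was lost without MB49 control replicate 1 or MB49 irradiated replicate 3, and with a length offset (-0.18, adjusted p = 0.164). With that offset it passed as higher in KPC (0.27, adjusted p = 0.0494). Adss2, on the branch to AMP, was called in neither line (0.31 in MB49 and -0.20 in KPC), but passed with the replicate block in MB49 (adjusted p = 0.0359) and with library totals in KPC (-0.58).

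Of the salvage enzymes, Aprt, which recovers adenine, was at 262 to 292 CPM in irradiated and 147 to 229 CPM in control MB49 cells (log2 fold change 0.56, adjusted p = 0.00474). With a length offset this value was -0.01. In KPC, Aprt was at -0.32 (adjusted p = 0.0829). Hprt1, which recovers hypoxanthine and guanine, was called in neither line, at 0.35 in MB49 (adjusted p = 0.0568, and 0.0494 with the replicate block) and -0.20 in KPC (adjusted p = 0.264, and -0.58 and called with library totals).

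In pyrimidine synthesis, the last enzyme to UMP and the mitochondrial step before it fell in both lines, and Cad, the multifunctional entry enzyme, was called in neither (0.33 in MB49 and -0.33 in KPC). Cad passed in MB49 with a length offset (0.64, adjusted p = 0.00169) and in KPC with library totals (-0.73, adjusted p = 0.00171). Umps was at 28.1, 23.4 and 30.0 CPM in irradiated and 81.0, 80.8 and 80.1 CPM in control KPC cells (log2 fold change -1.57, SE 0.12, adjusted p = 4.82e-09). It fell by 1.39 in MB49 (25.9 to 30.4 CPM in irradiated and 69.0 to 78.4 CPM in control cells). Dhodh was at 10.1, 9.62 and 10.7 CPM in irradiated and 28.2, 29.9 and 24.9 CPM in control KPC cells (-1.45, SE 0.15, adjusted p = 2.54e-07). In MB49 it was at 4.77, 4.14 and 4.01 CPM in irradiated and 6.10, 5.13 and 7.46 CPM in control cells (-0.53, SE 0.16, adjusted p = 0.0088), again with no overlap.

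The CTP synthetases moved apart. Ctps2 was at 42.96, 43.8 and 44.6 CPM in irradiated and 20.5, 22.02 and 19.9 CPM in control MB49 cells (log2 fold change 1.07, SE 0.11, adjusted p = 2.2e-07), and at 51.9, 57.6 and 47.7 CPM in irradiated and 19.8, 18.4 and 18.6 CPM in control KPC cells (1.47, SE 0.11, adjusted p = 5.14e-09). Its irradiated libraries were above all controls in both lines. Ctps1 fell in MB49 (-1.34, 60.3 to 75.5 CPM in irradiated and 162 to 185 CPM in control cells) and in KPC (-0.44, 118 to 123 CPM in irradiated and 157 to 171 CPM in control cells).

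Among the genes of dNTP supply, Samhd1, which breaks dNTPs down, rose most. It was at 514, 523 and 508 CPM in irradiated and 92.3, 96.0 and 101 CPM in control KPC cells (log2 fold change 2.42, SE 0.11, adjusted p = 5.64e-12), and at 98.5, 91.2 and 108 CPM in irradiated and 43.8, 44.3 and 45.4 CPM in control MB49 cells (1.16, SE 0.11, adjusted p = 4.69e-08). No library crossed groups in either line. Rrm2, the small subunit of ribonucleotide reductase that dividing cells use, rose in MB49 (0.85, 82.0 to 88.2 CPM in irradiated and 46.4 to 48.6 CPM in control cells) and in KPC (0.43, 168 to 174 CPM in irradiated and 120 to 130 CPM in control cells), where library totals took the call away (0.05). Rrm1, the large subunit, rose in KPC (0.75, 155 to 166 CPM in irradiated and 86.3 to 104 CPM in control cells) and was at 0.08 in MB49 (adjusted p = 0.554).

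Rrm2b, the alternative small subunit that is known as a p53 target, fell. It was at 2.93, 3.03 and 3.54 CPM in irradiated and 12.7, 13.2 and 12.9 CPM in control KPC cells (log2 fold change -2.03, SE 0.23, adjusted p = 6.43e-07). In MB49 it was at 5.81, 3.95 and 8.21 CPM in irradiated and 12.6, 13.8 and 9.24 CPM in control cells (-0.99, SE 0.22, adjusted p = 0.000674). The groups stood apart in both lines, more narrowly in MB49.

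Tk1, which salvages thymidine and is high in S phase, was at 54.2, 58.5 and 57.5 CPM in irradiated and 169, 148 and 164 CPM in control MB49 cells (log2 fold change -1.50, SE 0.12, adjusted p = 7.89e-09). In KPC it was at 38.5, 35.4 and 40.2 CPM in irradiated and 43.2, 34.8 and 32.9 CPM in control cells, which overlapped (0.04, adjusted p = 0.791, and -0.34 and called lower with library totals). Dut, which removes dUTP, fell in KPC (-0.40, adjusted p = 0.0188) and was at -0.08 in MB49 (adjusted p = 0.629), where it was called lower with a length offset (-0.54, adjusted p = 8.88e-05) and with library totals (-0.37, adjusted p = 0.0159). The KPC value was -0.20 (adjusted p = 0.155) without KPC control replicate 1 and -0.38 (adjusted p = 0.0609) without KPC irradiated replicate 1. Dck, the deoxycytidine kinase, was called in neither line (0.26 in MB49 and -0.12 in KPC), but was called higher in MB49 with a length offset (0.36) and lower in KPC with library totals (-0.50).

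Of the polyamine genes, Odc1, the rate-limiting decarboxylase, was at 173.3, 181.0 and 186.1 CPM in irradiated and 481.8, 455.6 and 443.9 CPM in control KPC cells (log2 fold change -1.35, SE 0.11, adjusted p = 1.77e-08). In MB49 it was at 2149, 2081 and 1861 CPM in irradiated and 2348, 2210 and 2123 CPM in control cells, which overlapped (-0.13, adjusted p = 0.304, and -0.43 and called lower with library totals, adjusted p = 0.000643). Srm, which makes spermidine, fell by 0.94 in MB49 (27.6 to 36.3 CPM in irradiated and 51.9 to 69.7 CPM in control cells) and by 0.89 in KPC (47.9 to 52.8 CPM in irradiated and 82.2 to 108 CPM in control cells).

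Sms, which makes spermine, was at 36.6, 41.8 and 49.98 CPM in irradiated and 25.96, 27.3 and 33.6 CPM in control MB49 cells (log2 fold change 0.57, SE 0.15, adjusted p = 0.00367). In KPC, Sms was at 28.0, 30.8 and 29.4 CPM in irradiated and 43.3, 41.6 and 30.3 CPM in control cells, which overlapped (-0.39, SE 0.15, adjusted p = 0.0373). The KPC call was lost in 8 alternatives, among them DESeq2 (adjusted p = 0.0633), and the MB49 call with library totals (0.28). The pseudogene row Sms-ps held 5831 counts over the 12 libraries beside 9499 for Sms.

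Ratios between related genes within a library do not depend on how libraries are scaled. Counts per length were compared for 9 pairs in both lines, and in 16 of the 18 comparisons the irradiated and control libraries did not overlap. With 3 libraries against 3, the smallest p that the exact 2-sided permutation test can give is 0.1 (adjusted 0.1125 over the 18), which these 16 reached. No comparison could therefore pass 0.05. Among single genes, the groups did not overlap in 67.4% of all genes in MB49 and 69.7% in KPC. Ratios of other gene pairs were not compared. The ratios were not corrected for the trend with gene length in the MB49 response.

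In 4 pairs the ratio was lower in every irradiated library than in any control of both lines, and the order of the genes by level turned round in 1 of them. Prps1/Prps2 was 2.12, 2.03 and 1.65 in irradiated and 12.6, 12.2 and 10.6 in control MB49 cells, and 3.60, 3.45 and 3.83 in irradiated and 13.6, 10.6 and 12.8 in control KPC cells. Ctps1/Ctps2 was 1.96, 1.98 and 1.55 in irradiated and 10.3, 9.53 and 9.29 in control MB49 cells, and 2.61, 2.37 and 2.94 in irradiated and 9.08, 9.97 and 10.5 in control KPC cells. Both ratios were close between the lines' controls and stayed above 1 after irradiation.

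Aldh1l2/Aldh1l1 was 0.328, 0.295 and 0.507 in irradiated and 10.0, 12.3 and 8.19 in control MB49 cells, and 0.358, 0.333 and 0.270 in irradiated and 68.0, 97.9 and 97.7 in control KPC cells. The mitochondrial gene was the higher of the pair per length in all controls, and the cytosolic gene in all irradiated libraries. Impdh1/Impdh2 was 0.0963 in irradiated and 0.197 in control MB49 cells, and 0.116 in irradiated and 0.246 in control KPC cells (geometric means). Rrm2/Rrm2b was higher, at 31.2 in irradiated against 8.45 in control MB49 cells, and at 112 in irradiated against 20.3 in control KPC cells.

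For 2 pairs the groups were apart in both lines in opposite directions, lower in MB49 and higher in KPC for Mthfd2/Mthfd1 and the reverse for Rrm2/Rrm1. Mthfd2/Mthfd1 was 1.68 in irradiated and 4.73 in control MB49 cells, and 1.28 in irradiated and 1.11 in control KPC cells. Rrm2/Rrm1 was 1.298 in irradiated and 0.758 in control MB49 cells, and 1.95 in irradiated and 2.43 in control KPC cells. Mthfd2/Mthfd2l was 13.0 in irradiated and 45.2 in control MB49 cells, without overlap, and 25.1 in irradiated and 20.3 in control KPC cells, with overlap (exact p = 0.2). Shmt2/Shmt1 was 26.7 in irradiated and 27.2 in control MB49 cells, with overlap (exact p = 0.9), and 27.9 in irradiated and 17.2 in control KPC cells, without it.

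**Figure D3:**
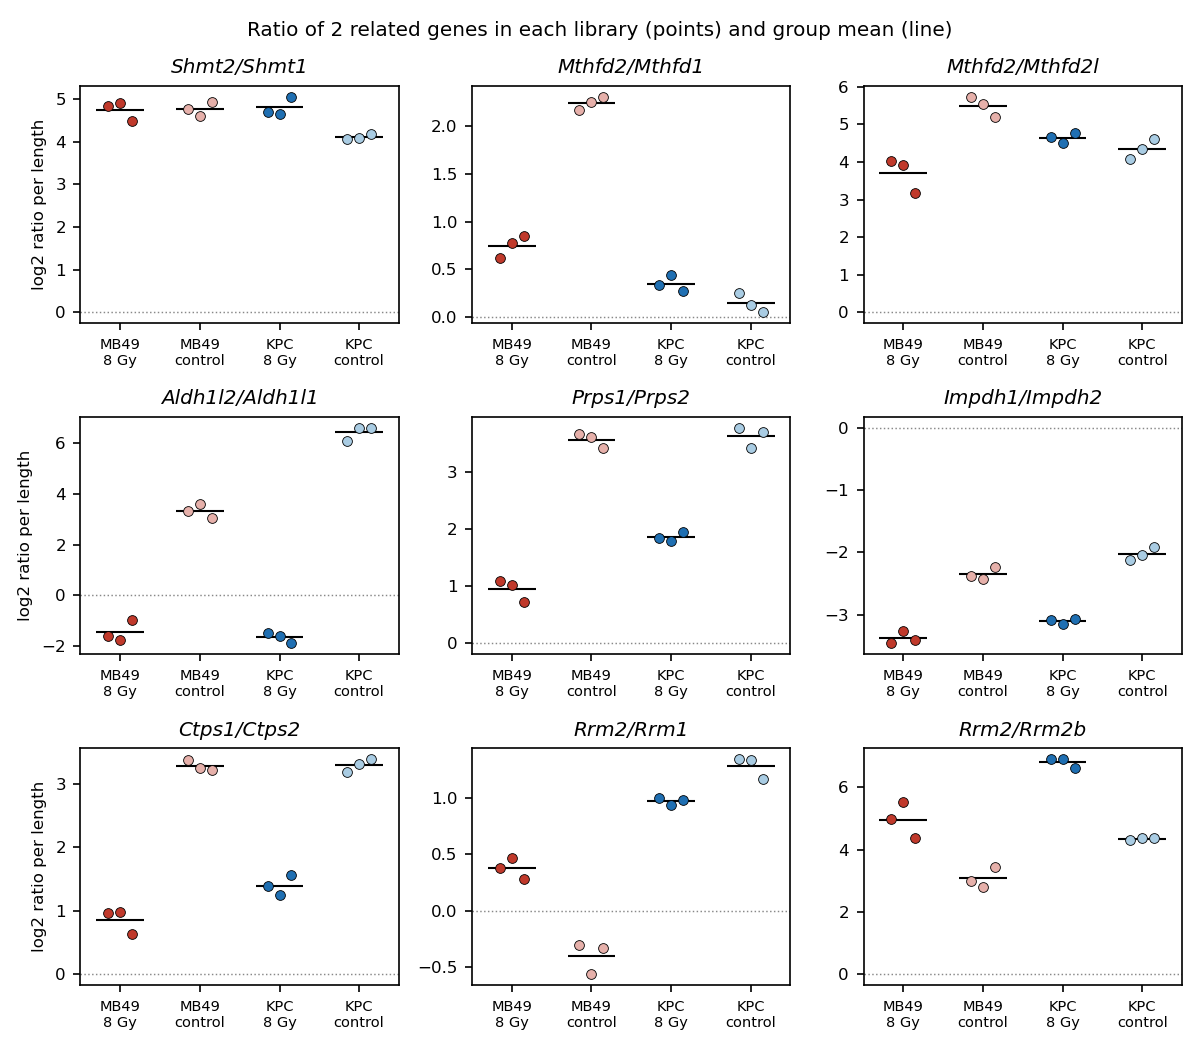
Log2 ratio of counts per length for 9 pairs of related genes (y axis), 1 point per library and a line at the group mean, with the irradiated group left of its control in each line. Prps1/Prps2, Ctps1/Ctps2, Impdh1/Impdh2 and Aldh1l2/Aldh1l1 lie lower in irradiated libraries of both lines, and Rrm2/Rrm2b higher.

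The response of KPC minus that of MB49 was tested as an interaction on the log2 scale. It was called in 31 of the 43 genes, 18 with a higher and 13 with a lower value in KPC, against 42.9% of all genes (20.9% higher and 22% lower). The median difference was 0.13 over the 43 and -0.02 over all genes, and 0.29 over the 43 without KPC control replicate 1. That left 18 higher and 10 lower, and leaving out MB49 control replicate 3 left 17 and 12. Of the calls, 15 of the 18 and 6 of the 13 stood in every alternative.

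Of the 12 folate and serine genes, 8 were higher in KPC and 2, Mthfd1 and Mthfd2l, lower, against 20.9% and 22% of all genes. The largest differences among the 43 were those of Aldh1l1 (2.89, SE 0.32, adjusted p = 2.3e-06), Mthfd1l (1.99, SE 0.16, adjusted p = 7.63e-08) and Tk1 (1.54, SE 0.17, adjusted p = 2.21e-06). Shmt2 followed at 1.496 and Mthfd2 at 1.20, both of which fell in MB49 and were not called in KPC. Samhd1 differed by 1.26, Mat2a by 1.17, Psat1 by 1.06 and Psph by 0.94.

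On the other side stood Prps2 (-1.33, SE 0.18, adjusted p = 2.51e-05), which rose more in MB49, and Odc1 (-1.22, SE 0.16, adjusted p = 1.33e-05), which fell in KPC and was called in MB49 only with library totals. Rrm2b differed by -1.04 (SE 0.31, adjusted p = 0.0128). Dhodh differed by -0.92, Sms by -0.95 and Aprt by -0.88, the last of which was -0.19 and not called with a length offset. Short genes as a whole moved up in MB49 relative to KPC: the median difference over all genes was -0.72 in the eighth with the shortest genes (median 831 bases) and 0.21 in the eighth with the longest (6961 bases). The part of gene length in the members' responses, differences and control comparison was not tested beyond the length offset.

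Umps (-0.18), Srm (0.05), Impdh2 (0.19), Paics (-0.36) and Aldh1l2 (-0.39), which moved in the same direction in both lines, were not called different. With a length offset Aldh1l2 was (-0.57, adjusted p = 0.00552). A missed threshold does not show that responses were equal.

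**Figure D4:**
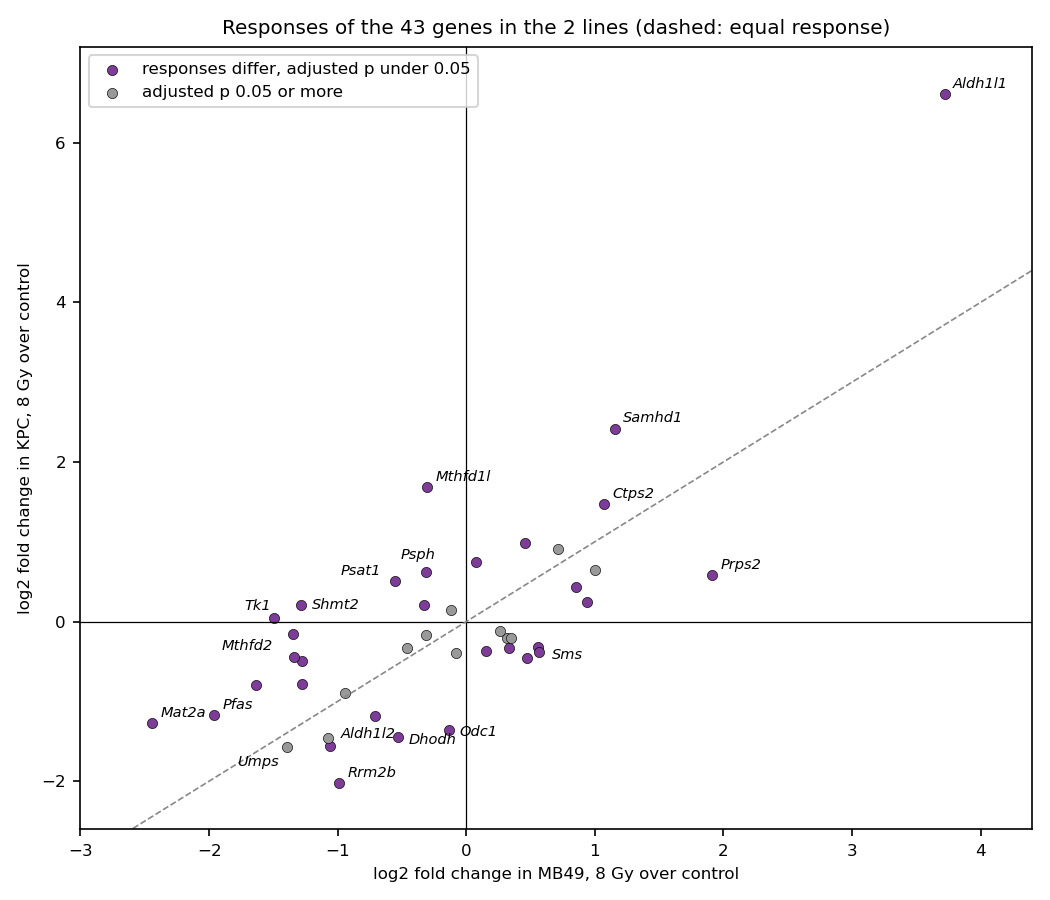
Log2 fold change after 8 Gy in KPC (y axis) against MB49 (x axis) for the 43 genes, with filled purple points where the responses differed at an adjusted p under 0.05. Mthfd1l, Psat1 and Psph lie above 0 in KPC and below 0 in MB49, Sms the other way round, and the dashed line marks equal responses.

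The lines also differed before irradiation. In KPC controls, 16 of the 43 genes were higher and 13 lower than in MB49 controls. That is 67.4% of the members called (37.2% higher and 30.2% lower), near the 67.3% of all genes called (33% higher and 34.4% lower). The median log2 difference was 0.06 over the 43 and -0.02 over all genes. Without KPC control replicate 1, 14 were higher and 12 lower, with a median of -0.02, and without MB49 control replicate 3, 17 and 13. Control libraries did not overlap in 32 of the 43, against 68.6% of all genes. Over all genes, the median control difference was 0.50 in the eighth with the shortest genes and -0.36 in the eighth with the longest. The values per library are those given above for the controls of each line.

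The pyrimidine gene Dhodh (log2 difference 2.15, SE 0.16, adjusted p = 1.48e-09) and Rrm2 (1.41, SE 0.10, adjusted p = 1.25e-09) were higher in KPC controls. Dut, at 305, 231 and 201 CPM in KPC and 72.9, 70.1 and 84.7 CPM in MB49 controls, was higher by 1.70 (SE 0.14, adjusted p = 1.06e-08). Rrm2 was at 120, 130 and 128 CPM in KPC and 48.6, 46.4 and 47.7 CPM in MB49 controls.

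Lower in KPC controls were Aldh1l1 (-5.50, SE 0.25, adjusted p = 2.31e-12), Mat2a (-2.57, SE 0.19, adjusted p = 1.58e-09), Aldh1l2 (-2.41, SE 0.14, adjusted p = 1.07e-10), Mthfd1l (-2.37) and Odc1 (-2.27). Of the 9 folate genes, 5 were lower in KPC and 1, Mthfd1, was higher (0.84). That is 55.6% lower and 11.1% higher, against 34.4% and 33% of all genes. Of the de novo purine genes, Gart (0.51) and Atic (0.61) were higher and Adsl (-0.96) and Adss2 (-0.88) lower. These shares, 20% in each direction, lay below those of all genes. Mthfd1l and Psph were thus lower in KPC controls (-2.37 and -1.67) and rose in KPC after 8 Gy. Among irradiated libraries, Mthfd1l was at 73.2 to 79.5 CPM in KPC and 85.1 to 110 CPM in MB49, and Psph at 64.0 to 70.9 CPM in KPC and 102 to 121 CPM in MB49. The response and the control comparison share the control libraries.

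Other genes of the same pathways were read from 4 lists that do not include the 43. Of 18 tested genes of folate, glycine and methionine metabolism, 4 rose and 9 fell in MB49 (median log2 fold change -0.33) and 4 rose and 11 fell in KPC (-0.65). That is 22.2% higher and 50% lower in MB49, against 35.3% and 31.6% of all genes, and 22.2% higher and 61.1% lower in KPC, against 31.3% and 32%. The folate carrier Slc19a1 fell in both, with 8.39 ± 1.3 CPM in irradiated and 43.8 ± 6.27 CPM in control MB49 cells (-2.39) and 8.94 ± 0.953 CPM in irradiated and 53.8 ± 3.3 CPM in control KPC cells (-2.59, SD, n = 3 each). Mtrr, which keeps methionine synthase active, fell in KPC (-2.17). Mthfs, which returns 5-formyl folate to use, rose in MB49 (2.999), Gldc of the glycine cleavage system in KPC (2.16), and Cbs, which draws homocysteine into cysteine synthesis, in both (2.84 in MB49 and 3.36 in KPC), with 9 counts over the 3 KPC controls.

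Of 37 tested genes of nucleotide interconversion and salvage, 17 rose and 8 fell in MB49 (45.9% and 21.6%, against 35.3% and 31.6% of all genes) and 11 rose and 14 fell in KPC (29.7% and 37.8%, near the 31.3% and 32% of all genes). The uridine phosphorylase Upp1 was at 441 ± 30.2 CPM in irradiated and 42.3 ± 3.07 CPM in control MB49 cells (log2 fold change 3.38), and the purine-degrading Xdh rose there by 2.28, while Nt5c2 fell by 1.36 and Dctd by 1.26. In KPC, the mitochondrial kinase Cmpk2 was at 98.4 ± 7 CPM in irradiated and 1.86 ± 0.498 CPM in control cells (5.72), and the purine phosphorylase Pnp rose by 3.15. The nucleoside diphosphate kinase Nme1 fell by 1.85 in KPC and Dctpp1 by 1.73.

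Of 8 tested polyamine genes outside the set, 5 rose and 2 fell in MB49 (62.5% and 25%, against 35.3% and 31.6% of all genes). In KPC, 2 rose and 3 fell (25% and 37.5%, against 31.3% and 32% of all genes). Sat1, which acetylates polyamines for breakdown, rose in both lines (2.60 in MB49 and 1.91 in KPC), and Amd1, which supplies the aminopropyl group, fell in both (-1.63 in MB49 and -2.17 in KPC). Paox rose in MB49 (1.23) and Smox in KPC (1.44), both polyamine oxidases, and Azin1 fell in both (-0.80 in MB49 and -0.75 in KPC). Of 12 replication licensing and clamp genes, 4 rose and 1 fell in MB49 (median -0.02), and 10 rose and 2 were not called in KPC (0.62). In MB49 the 33.3% higher is near the 35.3% of all genes, and in KPC 83.3% were higher, against 31.3%. Mcm7 (0.83) and Cdt1 (0.59) rose and Mcm3 fell (-0.74) in MB49, and Mcm4 (1.53) and Cdt1 (0.94) rose in KPC, beside the values of Rrm1, Rrm2, Tyms and Tk1 above. In bulk RNA, a change in the share of cells in a phase cannot be told apart from a change per cell.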

How the data were processed

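Strand-specific mRNA libraries were made from total RNA of the 2 lines, 12 in all, per the labels' protocols. The submitters' processing notes name fastp, HISAT2, StringTie and the build GRCm39, without versions; for the counting tool and its strand setting nothing is given in the sources used here. Values deposited by the authors are estimated counts by gene without scaling, and between 6.20 and 8.65% of them in a library were not whole. The authors' group means were not used, and the gene lengths deposited by the authors served levels per length and 1 alternative.

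Counts were rounded, genes with low counts removed with filterByExpr (14362 kept, 42818 removed), and libraries scaled by TMM (0.829 to 1.18). The 525 rows with no symbol (0.184 to 0.449% of counts) stayed in. edgeR 4.0.16 (R 4.3.3) fitted 1 quasi-likelihood model to the 12 libraries (8 residual degrees of freedom, common biological coefficient of variation 0.15). Tests were 2-sided with Benjamini-Hochberg adjustment over all genes tested and calls under 0.05. Standard errors are approximate, from the F statistic. The steps were tested on simulated data in which few genes changed, as many raised as lowered. Most genes were called in the data here, so that test does not cover the scaling. The alternatives were DESeq2 1.42.0 (size factors, Wald test), library totals, no filter, fewer libraries, a length offset, a replicate block and leaving out each library.

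The genes, lists and tests were chosen with earlier results of these data known. Values per library are given for the 4 largest called rises and falls of each line and the 3 largest called differences of response in each direction. They are also given for the 3 largest called control differences in each direction and for genes called in opposite directions. Values of other genes were added after they were seen. From the other lists, up to 2 called genes per direction and line with at least 1 CPM were named, except 1 that is not reported here.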

Additional observations from a re-analysis of the deposited data

Results flagged for a closer look

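The genes below are given again because the 8 Gy response of KPC minus that of MB49 passed the interaction test (edgeR's quasi-likelihood test, adjusted p under 0.05 over all genes). Values are differences of log2 fold changes, each from 3 libraries per group, and the cause of none was tested. In serine and folate metabolism the response was higher in KPC for Aldh1l1 (2.89), Mthfd1l (1.99), Shmt2 (1.5), Mthfd2 (1.20), Psat1 (1.06), Psph (0.94), Shmt1 (0.78) and Tyms (0.52), and lower for Mthfd2l (-0.93) and Mthfd1 (-0.52). In the methionine cycle it was higher for Mat2a (1.17) and lower for Ahcy (-0.69).

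In purine synthesis and salvage the response was higher in KPC for Ppat (0.84), Pfas (0.78), Adsl (0.54) and Atic (0.49), and lower for Prps2 (-1.33), Aprt (-0.88), Gart (-0.50) and Prps1 (-0.48). Among pyrimidine genes it was higher for Ctps1 (0.90) and Ctps2 (0.40) and lower for Dhodh (-0.92) and Cad (-0.66). Among genes of dNTP supply it was higher for Tk1 (1.54), Samhd1 (1.26) and Rrm1 (0.67) and lower for Rrm2b (-1.04) and Rrm2 (-0.42). Both polyamine genes called, Odc1 (-1.22) and Sms (-0.95), were lower. Of these 31, 10 lost the call under at least 1 alternative: Tyms, Mthfd2l, Mthfd1, Prps1, Gart, Atic, Aprt, Cad, Ctps2 and Rrm2. With 3 libraries per group, no single library was tested as an outlier.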

How the results depend on the processing

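The median log2 fold change of the 43 genes was -0.60 in MB49 and -0.58 in KPC with library totals, which shifted the median of all genes too. In KPC it was also -0.15 with DESeq2 size factors, -0.15 in DESeq2's Wald test and -0.16 with a length offset, and -0.27 to -0.17 when each library was left out. For the difference of responses it was 0.036 to 0.29 when each library was left out, the highest without KPC control replicate 1. For KPC against MB49 controls it was 0.15 with a length offset and -0.016 to 0.12 when each library was left out, the lowest without KPC control replicate 1. The counts of genes called higher or lower changed by at most 1.5 times under each of these settings. This limit was reached in KPC with library totals, where fewer members were higher and more were lower, as given above.

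Single genes changed sign, most of them not called. With library totals these were, in MB49, Mthfd1 (-0.15), Rrm1 (-0.22) and Dck (-0.025), in KPC, Phgdh (-0.23), Shmt2 (-0.17), Ahcy (-0.14), Adsl (-0.18) and Tk1 (-0.34), and, in the difference, Srm (-0.036). Rrm1 in MB49 was also -0.048 with no filter and -0.0088 with only the libraries compared. With a length offset they were Aprt in MB49 (-0.0105), Gmps (-0.083) and Dut (0.26) in the difference, and Shmt1 (0.051), Tyms (0.028), Ppat (0.061), Pfas (0.22) and Hprt1 (-0.060) in the controls. The cause was not tested.

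With each library left out, values that changed sign ranged as follows. In MB49, Phgdh ranged over -0.22 to 0.0053 and Rrm1 over -0.0199 to 0.13. In KPC, Tk1 ranged over -0.038 to 0.18. In the difference, Srm ranged over -0.0525 to 0.28. In the controls, Shmt1 ranged over -0.15 to 0.0097, Mthfd2l over -0.26 to 0.0297, Pfas over -0.21 to 0.047, Impdh2 over -0.14 to 0.044, Gmps over -0.048 to 0.16, Hprt1 over -0.016 to 0.33 and Rrm2b over -0.035 to 0.24. The ratio Shmt2/Shmt1 in MB49 ranged over -0.11 to 0.10 on the log2 scale.

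Same-numbered irradiated and control libraries correlated at -0.178 to 0.171 in MB49 and -0.116 to 0.019 in KPC. Libraries with unlike numbers correlated at -0.21 to 0.123 in MB49 and -0.117 to 0.126 in KPC. So few libraries cannot decide whether replicate numbers pair the samples. With the replicate number as a block, the members called were 14 higher and 20 lower in MB49, 12 and 18 in KPC, 16 and 11 in the difference and 16 and 12 in the controls. Depth limits Aldh1l1 in KPC controls (6 counts per library) and Rrm2b (2458 counts in 12 libraries). Among others, it also limits Mthfd2l (at or below 11.0 CPM) and Mat2a in irradiated KPC cells (3.20 to 6.80 CPM).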
